A study of Mus musculus with 20 samples.

Results

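Thymic group 2 innate lymphoid cells (ILC2) from irradiated mice were set directly against thymic ILC2 from mice injected with recombinant interleukin 25 (rIL-25). The comparison used 6 of the 20 libraries of the series, chosen by their treatment labels: 3 irradiated and 3 rIL-25 libraries, with all genes tested from the raw counts. Irradiated mice received a sublethal dose of 425 rad, and rIL-25 mice received an intra-thymic injection of 0.3 µg rIL-25. Both groups were young wild-type females whose cells were sorted from dissociated thymus 3 days after treatment. Of the same experiment, 3 libraries of untreated mice serve as a background level, and these and 3 libraries of mice given both treatments entered the fit to estimate the spread. The labels give neither the sorting gate, nor the age in weeks, nor whether a library is 1 animal or a pool. No group received an injection without rIL-25, so effects of rIL-25 and of the injection cannot be told apart. The p-values measure only the spread between these libraries, which may be technical.

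ILC2 are tissue lymphocytes that lack an antigen receptor, depend on the transcription factor GATA3 and secrete type 2 cytokines such as IL-13 and IL-5. IL-25 is an alarmin made by tuft cells, and its receptor chain on ILC2 is encoded by Il17rb. Irradiation depletes thymocytes, and the thymus then regenerates. ILC2 and T cells share early progenitor stages in the thymus, and both express genes such as Gata3, Tcf7 and Bcl11b.

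Libraries were made by MARS-seq, a protocol that counts the 3′ ends of transcripts. The irradiated libraries held 495079 to 666791 counts and the rIL-25 libraries 747018 to 1460702 counts. Levels below are CPM, counts scaled to a common library size with an adjustment for composition. A gene was called when its adjusted p (edgeR's quasi-likelihood test, Benjamini-Hochberg adjustment over 7482 genes) was under 0.05. The library of rIL-25 replicate 3 stood apart from the other rIL-25 libraries: its summed level of 18 markers of MHC class II, myeloid and dendritic cells was 2161 CPM, against 490 and 555 CPM in the other rIL-25 libraries and 409 to 531 CPM in the irradiated ones. In replicate 2 of both groups, the fibroblast gene Dcn was high, at 166 CPM in the irradiated and 107 CPM in the rIL-25 library, against at most 9.54 CPM in the other 4. The ILC2 label was borne out only in part. Gata3, which T cells also express, lay at 190, 268 and 290 CPM in irradiated libraries and at 203, 193 and 164 CPM in rIL-25 libraries. Il1rl1, which encodes the IL-33 receptor of mature ILC2, had 0 counts in rIL-25 replicates 1 and 2. In the same 2 libraries Arg1 had 0 and 1 counts, Klrg1 0 and 7 counts and Id2 53.2 and 38.5 CPM. Dntt, a gene of early lymphocytes, lay at 922 to 1040 CPM in irradiated and 1313 to 1825 CPM in rIL-25 libraries.

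A total of 155 genes differed between irradiated and rIL-25 libraries, 2.07% of those tested. In irradiated libraries 75 genes were higher (1.0%) and 80 were lower (1.07%), and 121 of the 155 differed at least 2-fold. Counts of called list members below are to be read against these shares. The median log2 fold change over all genes tested was -0.01. For 154 of the 155 called genes the libraries of the 2 groups did not overlap, which also held for 1726 of all 7482 genes (23.1%). Leaving out 1 library gave 67 calls without irradiated replicate 1, 54 without irradiated replicate 3, 65 without rIL-25 replicate 1 and 74 without rIL-25 replicate 2. Without irradiated replicate 2 there were 206 calls, 117 of them higher. Without rIL-25 replicate 3 there were 169 calls among 7635 genes tested (2.21%), 99 higher (1.30%) and 70 lower (0.917%). List members called in that fit are to be read against these shares.

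In irradiated libraries the CD3 genes were higher, led by Cd3d. The CD3 chains form the signalling part of the T cell receptor, and Cd3d, Cd3e and Cd3g are neighbours on mouse chromosome 9. Their promoter windows run from 250 bases before to 50 bases after a start position in the GRCm38.p6 sequence. That position is the outer end of the RefSeq gene for Cd3g and lies inside the RefSeq gene for Cd3d and Cd3e. The windows are shown because these adjacent genes were all called in the same direction. Capitals mark the E-box letters CACCTG and CAGCTG, of a kind bound by E proteins. The windows are chr9:44981536-44981835 on the plus strand for Cd3d, chr9:45009562-45009861 on the minus strand for Cd3e and chr9:44980382-44980681 on the minus strand for Cd3g.
Cd3d: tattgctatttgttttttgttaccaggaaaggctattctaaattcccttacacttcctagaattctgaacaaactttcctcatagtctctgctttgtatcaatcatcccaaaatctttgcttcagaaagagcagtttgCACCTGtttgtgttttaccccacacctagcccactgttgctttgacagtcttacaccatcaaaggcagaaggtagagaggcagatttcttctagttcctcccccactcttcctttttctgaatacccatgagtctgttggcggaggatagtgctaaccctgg
Cd3e: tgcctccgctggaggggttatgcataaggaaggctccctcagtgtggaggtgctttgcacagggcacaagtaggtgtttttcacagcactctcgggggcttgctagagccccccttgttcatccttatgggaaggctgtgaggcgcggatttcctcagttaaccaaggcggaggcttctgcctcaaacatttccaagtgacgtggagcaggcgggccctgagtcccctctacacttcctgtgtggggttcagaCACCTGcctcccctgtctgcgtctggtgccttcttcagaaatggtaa
Cd3g: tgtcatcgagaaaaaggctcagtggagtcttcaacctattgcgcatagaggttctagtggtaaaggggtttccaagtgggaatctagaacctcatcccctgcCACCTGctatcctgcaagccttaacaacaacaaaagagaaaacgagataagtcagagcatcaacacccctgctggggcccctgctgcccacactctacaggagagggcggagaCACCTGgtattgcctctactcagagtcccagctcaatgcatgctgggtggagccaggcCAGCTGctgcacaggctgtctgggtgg
Both strands were searched, and no match overlapped another. CACCTG stood in all 3 windows and in 20.2% of 32851 promoters of the same length; CAGCTG stood in the Cd3g window and in 16.3% of promoters. The RUNX letters TGTGGT, present in 16.8% of promoters, had no match in these 3 windows.

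Cd3d had 657, 664 and 707 CPM in irradiated libraries, against 127, 136 and 144 CPM in rIL-25 libraries. The lowest irradiated library was far above the highest rIL-25 library, and untreated libraries lay at 117 ± 10.4 CPM (SD, n = 3). The log2 fold change was 2.32 ± 0.18 (SE; adjusted p = 8.32e-08), and it stayed between 2.27 and 2.36 when any 1 library was left out. In sorted bulk samples, fewer cells of a type and less RNA per cell cannot be told apart. Cd3e had 410, 194 and 332 CPM in irradiated and 116, 114 and 158 CPM in rIL-25 libraries (log2 fold change 1.28 ± 0.27, adjusted p = 0.0118). Cd3g had 342, 317 and 361 CPM in irradiated and 181, 206 and 170 CPM in rIL-25 libraries (log2 fold change 0.87 ± 0.20, adjusted p = 0.0249). The groups did not overlap for either gene, but both calls depended on single libraries: Cd3e lost its call without irradiated replicate 1 or 3 or rIL-25 replicate 1 or 2 (highest adjusted p = 0.0925), and Cd3g without any of these or rIL-25 replicate 3 (highest adjusted p = 0.118).

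Other surface molecules of lymphocytes rose with Cd3d. Cd2, an adhesion and costimulatory molecule of T and NK cells, had 177, 176 and 299 CPM in irradiated libraries, against 0, 6.76 and 30.5 CPM in rIL-25 libraries (log2 fold change 4.19 ± 0.50, adjusted p = 4.98e-05). Izumo1r, the folate receptor family member also known from regulatory T cells, had 92.4, 78.3 and 86.9 CPM in irradiated and 4.09, 3.38 and 16.5 CPM in rIL-25 libraries (log2 fold change 3.53 ± 0.42, adjusted p = 4.98e-05). Ctla4, an inhibitory receptor of activated lymphocytes, had 53.5, 62.6 and 35.7 CPM in irradiated and 5.45, 6.08 and 14.0 CPM in rIL-25 libraries (log2 fold change 2.62 ± 0.38, adjusted p = 0.000264). For all 3 genes every irradiated library exceeded every rIL-25 library, the untreated libraries lay at 4.56 to 18.2 CPM, and the call held with any 1 library left out. Leaving out rIL-25 replicate 3, the highest of its group for all 3, gave a log2 fold change of 5.58 for Cd2, 4.51 for Izumo1r and 3.09 for Ctla4; over all 12 fits with 1 library left out the lowest values were 3.71, 3.02 and 2.35. Adgre5, which encodes the adhesion receptor CD97, was also called (log2 fold change 2.41, adjusted p = 0.00944), but its exons overlap those of Ddx39 on the other strand, and the call was lost without irradiated replicate 3 or rIL-25 replicate 1 or 2 (highest adjusted p = 0.114). Its log2 fold change was 1.78 without rIL-25 replicate 2 and 3.51 without rIL-25 replicate 3.

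Of the 19 T cell and thymocyte markers listed, 12 passed the filter on low counts. The 3 CD3 genes were called higher (25% of the 12, against 1.0% of all genes), and none was called lower. All 12 had a fold change above 0, with a median log2 fold change of 0.52 against -0.01 over all genes tested, and all 12 stayed above 0 under each other scaling tried. The summed level of these markers was 3862 to 4882 CPM in irradiated and 2559 to 2839 CPM in rIL-25 libraries. Of the αβ coreceptor genes, Cd4 and Cd8a were near 0. Cd4 had 2, 0 and 1 counts in irradiated libraries and 0, 5 and 17 counts in rIL-25 libraries. Cd8a had 1, 0 and 3 counts in irradiated and 0, 4 and 17 counts in rIL-25 libraries. Cd8b1, also a coreceptor gene, passed the filter and was not called with all libraries. Without rIL-25 replicate 3 edgeR called Cd8b1 higher in irradiated libraries (log2 fold change 1.63 ± 0.39, adjusted p = 0.0254). That p-value rests on leaving out 1 library, which held the most Cd4 and Cd8a counts of its group. The receptor constant genes Trac, Trbc1, Trbc2 and Trdc were not analysed here. The part of other T lineage cells in these differences was not tested.

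Further genes higher in irradiated libraries belong to several classes. Gzma, the granule protease granzyme A, had 827, 1147 and 925 CPM in irradiated libraries, against 241, 361 and 209 CPM in rIL-25 libraries (log2 fold change 1.83 ± 0.24, adjusted p = 0.000106). Pdlim4, an adaptor of the actin cytoskeleton, had 86.0, 45.0 and 89.2 CPM in irradiated and 0, 3.38 and 2.54 CPM in rIL-25 libraries (log2 fold change 4.90 ± 0.59, adjusted p = 4.98e-05). Dtx1, a target and regulator of Notch signalling, had 123, 112 and 89.2 CPM in irradiated and 29.98, 21.0 and 24.2 CPM in rIL-25 libraries (log2 fold change 2.14 ± 0.33, adjusted p = 0.000607). The groups were separate for each of these genes. Rpph1, the RNA component of RNase P, had 464, 452 and 410 CPM in irradiated and 76.3, 80.5 and 54.7 CPM in rIL-25 libraries (log2 fold change 2.64 ± 0.23, adjusted p = 3.98e-07). The annotation places an exon of Ccnb1ip1 over Rpph1 on the same strand, so counts of the 2 genes may be mixed. Drc1, a subunit of the ciliary dynein regulatory complex (log2 fold change 3.40, adjusted p = 5.73e-05), Ndrg2 (3.06, adjusted p = 0.00052) and the lysosomal nuclease gene Pld4 (1.99, adjusted p = 0.0018) rose as well. Fam20a, a pseudokinase gene, had 40 counts in irradiated and 2 counts in rIL-25 libraries, a ratio of 34.9 per total count (exact 95% interval 9.06 to 298, counting error only). These 8 genes kept their calls with any 1 library left out. Without rIL-25 replicate 2 the log2 fold change was 5.63 for Pdlim4 and 3.96 for Ndrg2, and without rIL-25 replicate 3, which held both its rIL-25 counts, Fam20a was at least 17.3-fold higher against a floor of 3 counts.

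**Figure D1:**
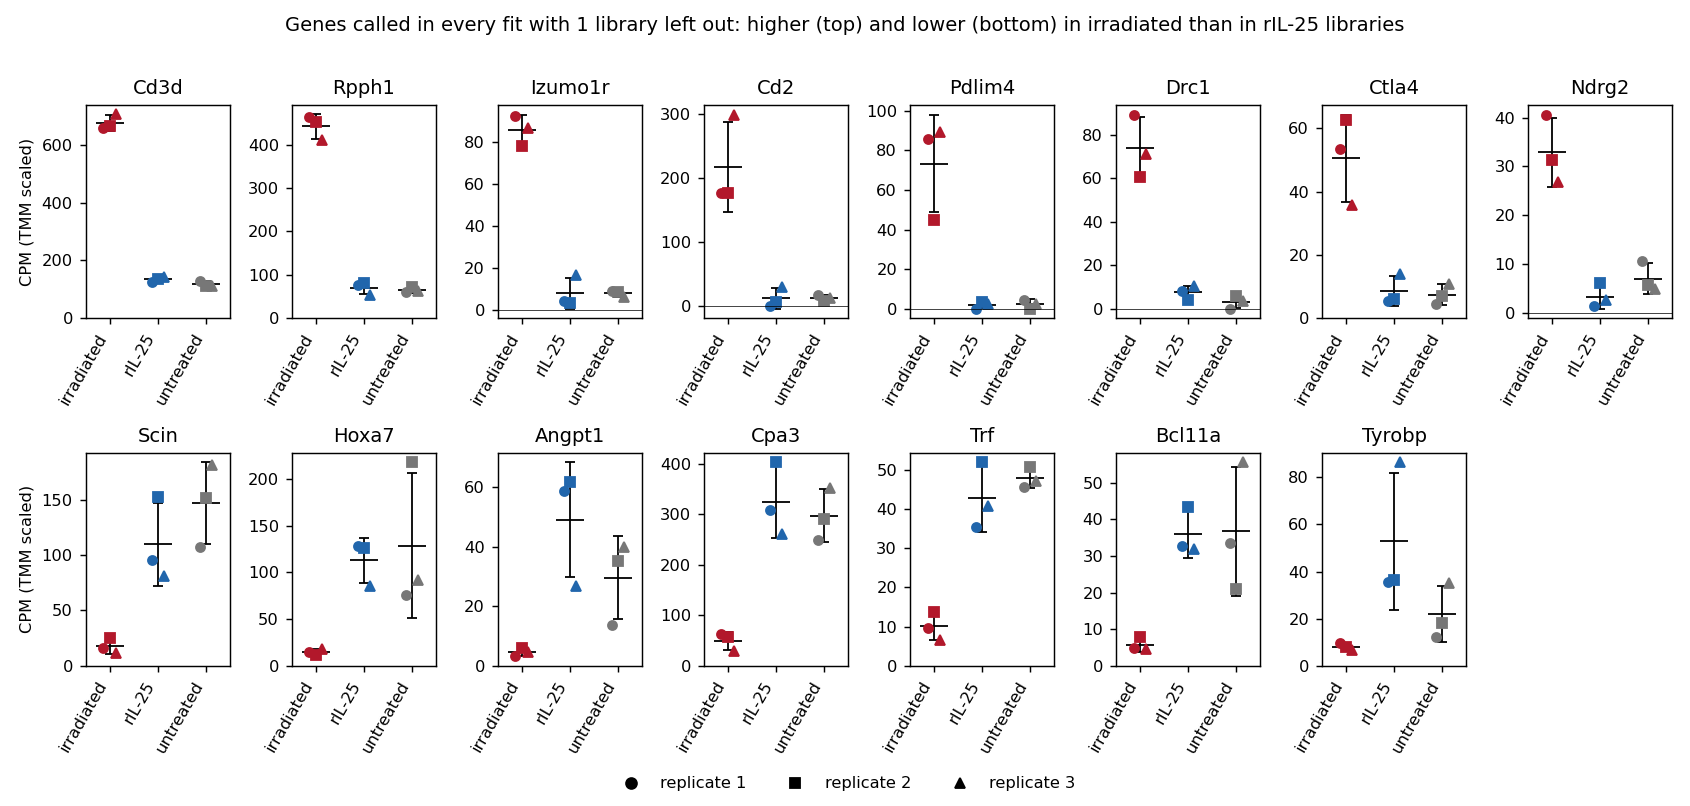
CPM in each library (y axis, linear, own scale per panel) for irradiated, rIL-25 and untreated groups, 3 libraries each, with symbols for the replicate number and horizontal lines and bars for mean and SD. Among the 15 largest rises and 15 largest falls, of those that kept their calls in every leave-one-out fit, the 8 rises with the smallest adjusted p (top) and the 7 falls (bottom) show no overlap between irradiated and rIL-25 libraries.

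Among genes of early lymphoid progenitors, 5 were lower in irradiated libraries. Hoxa7, a homeobox gene of early blood progenitors, had 14.6, 11.7 and 17.8 CPM in irradiated libraries, against 128, 126 and 85.2 CPM in rIL-25 libraries and 75.96 to 218 CPM in untreated ones (log2 fold change of irradiated over rIL-25 libraries -2.94 ± 0.42, adjusted p = 0.000264). Bcl11a, a transcription factor gene of lymphoid progenitors, had 4.87, 7.83 and 4.46 CPM in irradiated and 32.7, 43.3 and 31.8 CPM in rIL-25 libraries (log2 fold change -2.64 ± 0.49, adjusted p = 0.00415). Kit, the receptor of stem cell factor, had 42.2, 17.6 and 20.1 CPM in irradiated and 108, 88.6 and 71.2 CPM in rIL-25 libraries (log2 fold change -1.69 ± 0.32, adjusted p = 0.0044). For these 3 genes no library of one group reached the other group, and the calls held with any 1 library left out.

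Of 25 listed markers of early T lineage and lymphoid progenitors, 16 passed the filter. Of these, 5 were called lower (31.2%, against 1.07% of all genes) and 1, Dtx1, higher (6.25%, against 1.0%). The median log2 fold change was -0.86, against -0.01 over all genes tested. Besides Hoxa7, Bcl11a and Kit, the lower genes were Lyl1 and Hes1, named after their values were seen. Lyl1, a basic helix-loop-helix factor gene, had 40.5, 62.6 and 44.6 CPM in irradiated and 149.9, 118 and 126 CPM in rIL-25 libraries (log2 fold change -1.41 ± 0.28, adjusted p = 0.00714), and lost its call without irradiated replicate 1 or 3 (highest adjusted p = 0.0656). Hes1, a Notch target, had 77.9, 68.5 and 29.0 CPM in irradiated and 123, 152 and 139.9 CPM in rIL-25 libraries (log2 fold change -1.22 ± 0.31, adjusted p = 0.0388), and lost its call in 6 of 12 fits with 1 library left out (highest adjusted p = 0.206). Dtx1 and Hes1, both Notch targets, were thus called in opposite directions. Hoxa9 had 0 counts in all 3 irradiated libraries and 6, 13 and 5 counts in rIL-25 libraries, and was not tested. Dntt, the terminal transferase of early lymphocytes, had 1040, 922 and 936 CPM in irradiated and 1539, 1825 and 1313 CPM in rIL-25 libraries; its groups did not overlap, but it was not called (log2 fold change -0.69 ± 0.19, adjusted p = 0.0645; 0.0498 without rIL-25 replicate 3 and 0.0145 by DESeq2). The summed level of the progenitor markers was 2249 to 2780 CPM in irradiated and 3093 to 4073 CPM in rIL-25 libraries. The part of progenitor cells in these differences was not tested.

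The mast cell protease gene Cpa3, also expressed by lymphoid progenitors, had 63.3, 56.8 and 29.0 CPM in irradiated libraries, against 309, 404 and 262 CPM in rIL-25 libraries (log2 fold change -2.69 ± 0.47, adjusted p = 0.00221). It was the 1 tested member of 14 mast cell, basophil and eosinophil markers; Hdc and Siglecf were below the filter, and the other 11 were not analysed here. The part of mast cells in this difference was not tested. Tyrobp, the signalling adaptor DAP12 of myeloid and NK cells, had 9.73, 7.83 and 6.69 CPM in irradiated and 35.4, 36.5 and 86.5 CPM in rIL-25 libraries (log2 fold change -2.64 ± 0.50, adjusted p = 0.00464). Without rIL-25 replicate 3 its log2 fold change was -2.11 (adjusted p = 0.0232). Scin, an actin-severing protein gene, had 16.2, 25.4 and 11.1 CPM in irradiated and 95.4, 153 and 81.4 CPM in rIL-25 libraries (log2 fold change -2.64 ± 0.37, adjusted p = 0.000231). Irradiated libraries were below all rIL-25 libraries for these 3 genes. Angpt1, a ligand of the TIE2 receptor, had 3.24, 5.87 and 4.46 CPM in irradiated and 58.6, 61.5 and 26.7 CPM in rIL-25 libraries (log2 fold change -3.43 ± 0.58, adjusted p = 0.0017). Trf, the iron carrier transferrin, also fell (log2 fold change -2.08, adjusted p = 0.00221). Adam11 had 1 count in irradiated and 50 counts in rIL-25 libraries, 28.6 times as many per total count in rIL-25 libraries (exact 95% interval 4.91 to 1150). The call of Adam11 was lost without irradiated replicate 1 or 3 or rIL-25 replicate 2 (highest adjusted p = 0.0781). Its log2 fold change of -4.33 ran from -6.70 without irradiated replicate 2, which held the 1 count, to -3.74 without irradiated replicate 1. Plxnb2, a semaphorin receptor gene, had 3, 0 and 0 counts in irradiated and 18, 23 and 15 counts in rIL-25 libraries, 10.7 times as many per total count in rIL-25 libraries (exact 95% interval 3.47 to 53.4). All its irradiated counts lay in irradiated replicate 1; without that library Plxnb2 was at least 6.51-fold lower in irradiated libraries, taking 3 counts as their floor. Clec12a, Glul, Gria3, Sh2d5, Slc28a2 and Tef were likewise called lower (log2 fold changes -2.56 to -2.13). Each of these 6 genes and Plxnb2 lost its call without at least 1 library, and Sh2d5 shares exon sequence with Kif17; Gria3 was also not called with the replicate numbers as a block (adjusted p = 0.0501).

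Of 22 listed ILC2 identity genes 18 passed the filter. Thy1 was called higher (5.56% of the 18, against 1.0% of all genes) and Kit lower (5.56%, against 1.07%). At an unadjusted p under 0.05 by edgeR 6 were higher and 2 lower, against 8.53% and 8.23% of all genes. The median log2 fold change was 0.16 against -0.01 over all genes tested. Thy1, a surface glycoprotein of T cells and ILC2, had 4175, 2533 and 3431 CPM in irradiated and 1807, 1531 and 1743 CPM in rIL-25 libraries (log2 fold change 1.0 ± 0.21, adjusted p = 0.0111), and lost its call without irradiated replicate 1 or 3 or rIL-25 replicate 2 (highest adjusted p = 0.0871). The IL-25 receptor gene Il17rb, whose exons overlap Actr8 on the other strand, had 206, 174 and 230 CPM in irradiated libraries and 203, 195 and 256 CPM in rIL-25 libraries. These groups overlapped (log2 fold change -0.10 ± 0.20, adjusted p = 0.859). Gata3, which shares exon sequence with 9230102O04Rik, was not called either (log2 fold change 0.41 ± 0.20, adjusted p = 0.296).

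Genes of mature and activated ILC2 were low, and rIL-25 replicate 3 decided most of their values. Il1rl1 had 5, 6 and 34 counts in irradiated libraries, against 0, 0 and 19 counts in rIL-25 libraries, and was not called (adjusted p = 0.241). Arg1, arginase 1 of ILC2 and macrophages, had 10, 12 and 11 counts in irradiated and 0, 1 and 37 counts in rIL-25 libraries (adjusted p = 0.808). Klrg1, a receptor of activated ILC2, had 7, 10 and 13 counts in irradiated and 0, 7 and 38 counts in rIL-25 libraries (adjusted p = 0.917). For each gene rIL-25 replicate 1 held 0 counts, and rIL-25 replicate 3 was the highest or second highest of the 6 in CPM. Untreated libraries held 0, 0 and 3 counts of Il1rl1, 0, 0 and 2 counts of Arg1 and 1, 0 and 2 counts of Klrg1. Without rIL-25 replicate 3 all 3 were called higher in irradiated libraries, with adjusted p = 0.00481 for Il1rl1, 0.00579 for Arg1 and 0.0471 for Klrg1. These p-values rest on leaving out the library that was highest of its group for the same genes. Il1rl1 was then at least 19.4-fold higher, taking 3 counts as the floor over the other 2 rIL-25 libraries, but 34 of its 45 irradiated counts lay in irradiated replicate 3, and without that library too the bound was 6.69-fold. The Arg1 ratio was 42.7 (exact 95% interval 7.16 to 1740). Id2, a regulator needed by innate lymphoid cells, had 105, 270 and 203 CPM in irradiated and 53.2, 38.5 and 141 CPM in rIL-25 libraries (log2 fold change 1.34 ± 0.41, adjusted p = 0.0814); it was called without rIL-25 replicate 3 (log2 fold change 2.09, adjusted p = 0.0041) and with the replicate block (adjusted p = 0.0497). Without rIL-25 replicate 3, when 1.30% of all genes were called higher, 5 ILC2 identity genes were called higher, Arg1, Id2, Il1rl1, Klrg1 and Thy1, and 1 lower, Kit.

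**Figure D2:**
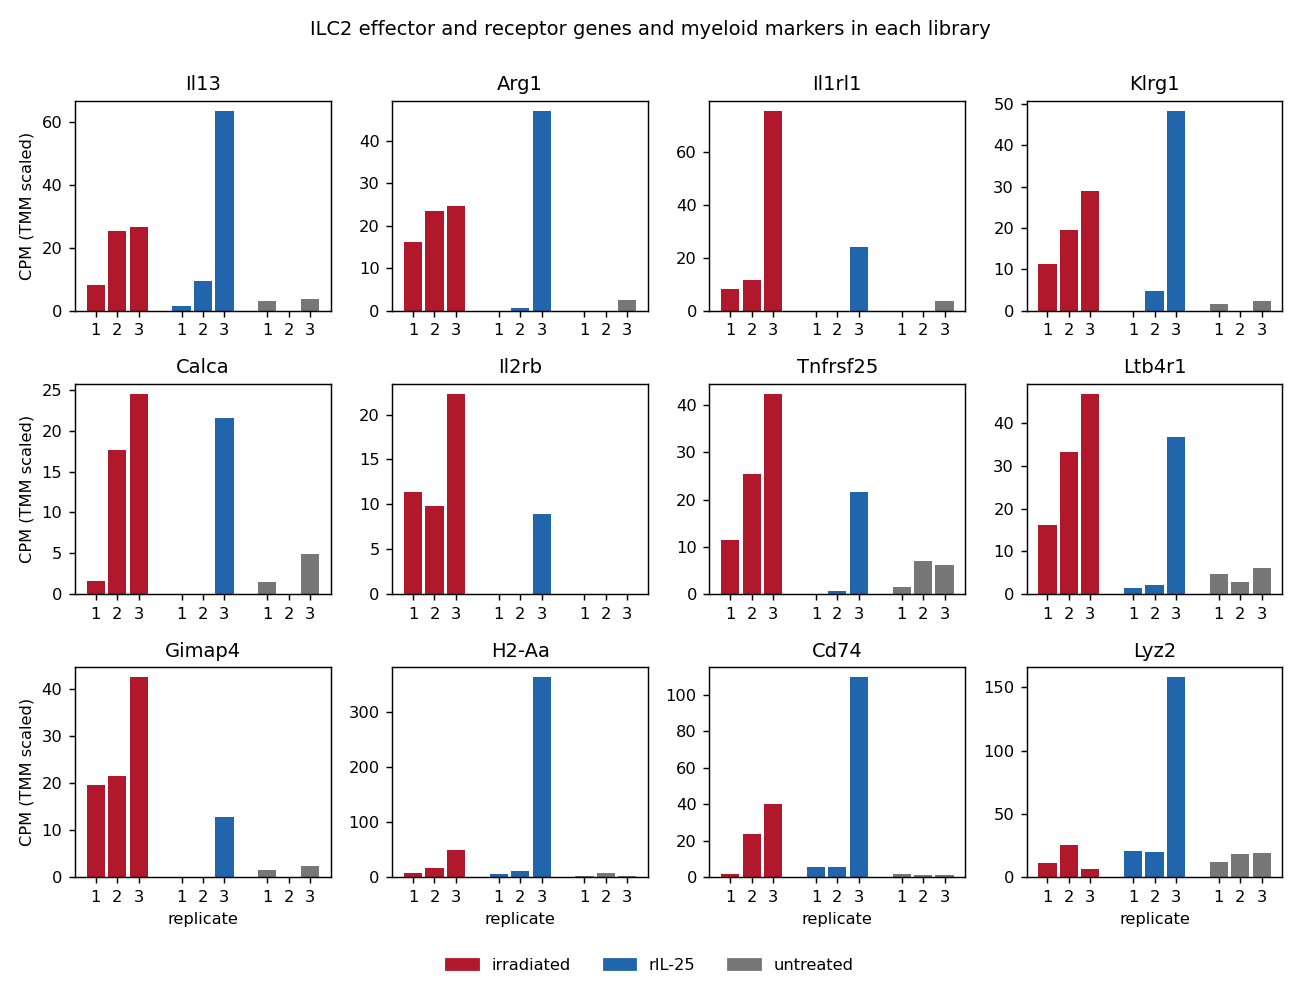
CPM in each library (bars, 1 per library, numbered by replicate, y axis linear from 0, own scale per panel). The panels show ILC2 effector and receptor genes, the GIMAP GTPase gene Gimap4 and 3 myeloid markers, H2-Aa, Cd74 and Lyz2. In most panels rIL-25 replicate 3 is far above rIL-25 replicates 1 and 2, as for Arg1 with 37 counts against 0 and 1.

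The same library carried the myeloid markers. H2-Aa, an MHC class II chain of antigen-presenting cells, had 8.11, 17.6 and 49.0 CPM in irradiated and 5.45, 11.5 and 362 CPM in rIL-25 libraries, and Lyz2, the lysozyme of myeloid cells, had 11.4, 25.4 and 6.69 CPM in irradiated and 20.4, 19.6 and 158 CPM in rIL-25 libraries. Neither was called (adjusted p = 0.199 and 0.117). Of 27 such markers 8 passed the filter, with Tyrobp called lower and a median log2 fold change of -1.70, which was 0.16 without rIL-25 replicate 3. Several myeloid markers are also made by activated ILC2, and the part of myeloid cells in these values was not tested.

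No type 2 effector gene was called by edgeR. Of 16 listed, 5 passed the filter; none had an unadjusted p under 0.05, and DESeq2 and limma voom called none. Over all genes tested 1254 of 7482 (16.8%) had an unadjusted p under 0.05, 638 higher (8.53%) and 616 lower (8.23%), and the counts at that level below are to be read against these shares. The median log2 fold change of the 5 genes was 0.26. With rIL-25 replicate 3 left out it was 1.62, all 5 were above 0, and Arg1, a member of this list too, was called higher (adjusted p = 0.00579). The library left out was the highest of its group for Arg1, Calca, Furin and Il13. Il13 had 8.11, 25.4 and 26.8 CPM in irradiated and 1.36, 9.46 and 63.6 CPM in rIL-25 libraries, with overlapping groups (log2 fold change -0.27 ± 0.82, adjusted p = 0.911); without rIL-25 replicate 3 the log2 fold change was 1.55 (adjusted p = 0.384). Il4, another type 2 cytokine, had 3, 2 and 3 counts in irradiated libraries and 0 counts in all rIL-25 libraries. Il4 was too low to test. Taking 3 counts as the floor over the rIL-25 group and the irradiated counts as exact gave a ratio of 4.66. With counting error in both groups, the exact 95% interval of the ratio of irradiated over rIL-25 libraries began lower, at 2.98. Il5 had 0, 1 and 7 counts in irradiated and 0, 3 and 9 counts in rIL-25 libraries, and Areg, a tissue repair factor, had 0 counts in irradiated and 0, 0 and 2 counts in rIL-25 libraries. Il5 and Areg were below the filter on low counts, so a difference in them was not tested. Il25 itself was not analysed here.

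Receptors and TNF family genes showed the same dependence. Of 27 alarmin, growth and costimulatory receptor genes 19 passed the filter. Ctla4 was called higher (5.26%, against 1.0% of all genes) and none lower. The median log2 fold change was 0.10, and -0.03 when libraries were scaled by total counts only. With either scaling it lay 0.11 above the median of all genes. The fit without rIL-25 replicate 3 called 4 higher, Ctla4, Il1rl1, Il2rb and Pdcd1, when 1.30% of all genes were called higher. That library was the highest of its group for these 4 genes, so p-values of this fit rest on leaving it out. Il2rb, a receptor chain for IL-2 and IL-15, had 7, 5 and 10 counts in irradiated and 0, 0 and 7 counts in rIL-25 libraries. It was not called (adjusted p = 0.145), but was at least 9.50-fold higher in irradiated libraries without rIL-25 replicate 3 (adjusted p = 0.00626). Pdcd1, the inhibitory receptor PD-1, had 69.7, 52.9 and 75.8 CPM in irradiated and 20.4, 16.2 and 48.3 CPM in rIL-25 libraries (log2 fold change 1.28 ± 0.37, adjusted p = 0.071, and 0.00601 without that library). Tnfrsf25, the receptor of TL1A, had 7, 13 and 19 counts in irradiated and 0, 1 and 17 counts in rIL-25 libraries (adjusted p = 0.177, and 0.000724 without that library). Of 12 tested lymphotoxin and TNF receptor family genes edgeR and DESeq2 called none and limma voom 3; 5 were higher and 2 lower at an unadjusted p under 0.05, against 16.8% of all genes. When rIL-25 replicate 3 was left out, edgeR called 3 higher, Ltb, Tnfrsf18 and Tnfrsf25. It was again the highest library of its group for Ltb and Tnfrsf25. Lta, lymphotoxin α, had 14.6, 17.6 and 17.8 CPM in irradiated and 6.81, 3.38 and 5.09 CPM in rIL-25 libraries, without overlap (log2 fold change 1.76 ± 0.47, adjusted p = 0.051). Tnfrsf18, the costimulatory receptor GITR, had a log2 fold change of 1.02 (adjusted p = 0.0867, and 0.0305 with the replicate block). It was 1.67 without rIL-25 replicate 3 (adjusted p = 0.00143).

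Among tissue residency and egress genes, 13 of 22 passed the filter. None was called by edgeR, DESeq2 called 2 lower, and limma voom called 2 in each direction. At an unadjusted p under 0.05 by edgeR 3 were higher and 3 lower (16.8% of all genes). The median log2 fold change was 0.75, but the summed level of the list went the other way. That sum was 1163 to 1167 CPM in irradiated and 1318 to 1540 CPM in rIL-25 libraries. In the fit without rIL-25 replicate 3 edgeR called 4 of 12 tested higher, Ccr7, Cxcr6, Itgae and Itgb7, when 1.30% of all genes were called higher. P-values of that fit rest on leaving out 1 library, which was the highest of its group for Itgb7 and S100a4. With total counts only edgeR called 2 lower. The integrin gene Itga4 had 201, 153 and 134 CPM in irradiated and 345, 372 and 282 CPM in rIL-25 libraries (log2 fold change -1.03 ± 0.29, adjusted p = 0.0645). Its groups did not overlap, and DESeq2 called it (adjusted p = 0.0314). Itgb7, the β7 integrin chain of mucosal homing, had a log2 fold change of 1.14 (adjusted p = 0.0881, and 0.0337 with the replicate block). It was 1.67 without rIL-25 replicate 3 (adjusted p = 0.0127). S100a4, a calcium-binding protein gene of motile cells, had 95.7, 139 and 165 CPM in irradiated and 16.4, 14.2 and 80.1 CPM in rIL-25 libraries, and was the 1 gene called among 14 tested of the inflammatory ILC2, S100 and galectin list (log2 fold change 1.92 ± 0.46, adjusted p = 0.0323). That call was lost without irradiated replicate 1 or 3 or rIL-25 replicate 1 or 2 (highest adjusted p = 0.154), and by DESeq2. The log2 fold change of S100a4 was 3.12 without rIL-25 replicate 3 (adjusted p = 0.000159), and Klrg1, Lgals3 and S100a6 of that list were called higher too. With all libraries 7 members of that list were above 0 and 7 below, with a median of 0.04. S100a10 and S100a11 were lower, not called in the main fit but called with total counts only and by limma voom. The summed level of the list was 11150 to 13120 CPM in irradiated and 15160 to 20950 CPM in rIL-25 libraries.

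p53, activated by DNA damage, induces cell cycle arrest and death genes. Of 34 listed p53 targets and DNA damage genes 19 passed the filter. Bax and 9030617O03Rik were called higher (10.5%, against 1.0% of all genes) and Ddb2 lower (5.26%, against 1.07%). Bax, a pore-forming protein of mitochondrial cell death, had 311, 184 and 319 CPM in irradiated and 120, 121 and 169 CPM in rIL-25 libraries (log2 fold change 0.99 ± 0.22, adjusted p = 0.019; highest adjusted p with 1 library left out 0.12). 9030617O03Rik had 45.4, 25.4 and 26.8 CPM in irradiated and 4.09, 4.73 and 7.63 CPM in rIL-25 libraries (log2 fold change 2.58 ± 0.48, adjusted p = 0.00403), and lost its call without irradiated replicate 1 (adjusted p = 0.0656). The groups were separate for both. The DNA repair gene Ddb2, whose exons overlap Acp2 on the other strand, had 24.3, 27.4 and 17.8 CPM in irradiated and 50.4, 56.8 and 50.9 CPM in rIL-25 libraries (log2 fold change -1.17 ± 0.29, adjusted p = 0.037); the call was lost in 6 of 12 fits with 1 library left out, and by DESeq2. Cdkn1a, the p21 inhibitor of the cell cycle, had 51.9, 37.2 and 51.3 CPM in irradiated and 38.2, 36.5 and 55.9 CPM in rIL-25 libraries, with overlapping groups (adjusted p = 0.889). The median of these 19 genes was 0.12, and -0.01 with total counts only. With either scaling it lay 0.13 above the median of all genes.

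Cell cycle genes showed no called difference by edgeR or DESeq2 among 57 tested of 62, and limma voom called 1 lower; 3 were higher and 4 lower at an unadjusted p under 0.05 (16.8% of all genes), and the median log2 fold change was 0.03. The proliferation marker Mki67 had 268, 321 and 252 CPM in irradiated and 217, 361 and 215 CPM in rIL-25 libraries (adjusted p = 0.911). Stmn1, a microtubule regulator of dividing cells, had 295, 423 and 165 CPM in irradiated and 484, 657 and 435 CPM in rIL-25 libraries (log2 fold change -0.83 ± 0.26, adjusted p = 0.0831; 0.0277 with the replicate block and 0.0174 without irradiated replicate 2). Of 22 tested BCL2 family and cell death genes 1 was called by edgeR, Bax.

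Proteasome and respiratory chain genes had small fold changes, nearly all above 0. All 36 proteasome subunits were tested and had fold changes above 0 (31 with total counts only), with a median log2 fold change of 0.38. None passed by edgeR; DESeq2 and limma voom called 3 each, and 15 were higher at an unadjusted p under 0.05, as were 8.53% of all genes. Psmd1, a regulatory particle subunit, had 495, 341 and 488 CPM in irradiated and 251, 310 and 271 CPM in rIL-25 libraries, without overlap (log2 fold change 0.67 ± 0.20, adjusted p = 0.0727; 0.0307 without irradiated replicate 2 and 0.036 by DESeq2). All 35 tested subunits of respiratory complex I were above 0 (31 with total counts only), with a median of 0.37 and no call by edgeR; DESeq2 called 3 and limma voom 2, and 13 were higher at an unadjusted p under 0.05. Of 41 tested genes of complexes II to V 39 were above 0, and Cox6a1, a subunit of cytochrome c oxidase, was called. Its level was 2107, 2151 and 2481 CPM in irradiated and 1100, 1432 and 1302 CPM in rIL-25 libraries (log2 fold change 0.81 ± 0.17, adjusted p = 0.0138; not called without irradiated replicate 3 or rIL-25 replicate 1, highest adjusted p = 0.107). The 73 tested ribosomal protein genes had a median of 0.20, with 62 above 0 (53 with total counts only); edgeR and DESeq2 called none and limma voom 1, and 6 were higher and 1 lower at an unadjusted p under 0.05, against 8.53% and 8.23% of all genes.

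Of 14 tested glycolysis genes 2 were called higher (14.3%, against 1.0% of all genes) and none lower, with a median of 0.51. Ldha, lactate dehydrogenase A, had 1051, 1022 and 1491 CPM in irradiated and 589, 673 and 704 CPM in rIL-25 libraries (log2 fold change 0.86 ± 0.22, adjusted p = 0.041; highest adjusted p with 1 library left out 0.23). That call was lost in 6 of 12 fits with 1 library left out, and also with total counts only, with upper quartile scaling and with a minimum count of 30. Gapdh had 897, 9.79 and 849 CPM in irradiated libraries and 1.36, 2.70 and 5.09 CPM in rIL-25 libraries. Gapdh was high in 2 of 3 irradiated libraries and near 0 in the other, and untreated replicate 3 also held 282 CPM; the gene has near-identical copies in the genome, so these counts are uncertain. Its call (adjusted p = 0.0247) was lost without any 1 of 5 libraries, and by limma voom. Aldoa, aldolase A, was not called (log2 fold change 0.95, adjusted p = 0.0567; 0.0264 with the replicate block, 0.0303 without rIL-25 replicate 3 and 0.0219 by DESeq2).

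Jun and Hspa1a were lower in irradiated libraries. Jun, an immediate early transcription factor gene, had 17.8, 27.4 and 4.46 CPM in irradiated and 77.7, 66.3 and 39.4 CPM in rIL-25 libraries (log2 fold change -1.84 ± 0.41, adjusted p = 0.0187), and was the 1 gene called among 13 tested immediate early and dissociation stress genes, whose median was -0.19. Hspa1a, an inducible heat shock protein gene with a near-identical copy, had 32.4, 54.8 and 20.1 CPM in irradiated and 116, 118 and 130 CPM in rIL-25 libraries (log2 fold change -1.74 ± 0.39, adjusted p = 0.0182), and was the 1 gene called among 30 tested chaperones, whose median was 0.25. Both genes had separate groups, and both calls were lost without irradiated replicate 1 or 3 (highest adjusted p 0.12 for Jun and 0.122 for Hspa1a). The call of Jun was also lost without rIL-25 replicate 1 or 2. Of 38 tested interferon response genes, Ly6a, which encodes SCA-1, was called higher (log2 fold change 1.09, adjusted p = 0.0439). Its call was lost in 6 of 12 fits with 1 library left out, and with total counts only, upper quartile scaling and a minimum count of 30; without rIL-25 replicate 3 Ifi27l2a was called higher too. Of 3 tested NK cell and ILC1 markers Gzma was called higher and Nkg7, a granule membrane protein gene, lower (log2 fold change -0.89, adjusted p = 0.0409; 8 of 12 fits with 1 library left out lost it); the defining NK genes Ncr1, Eomes and Tbx21 were not analysed here.

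**Figure D3:**
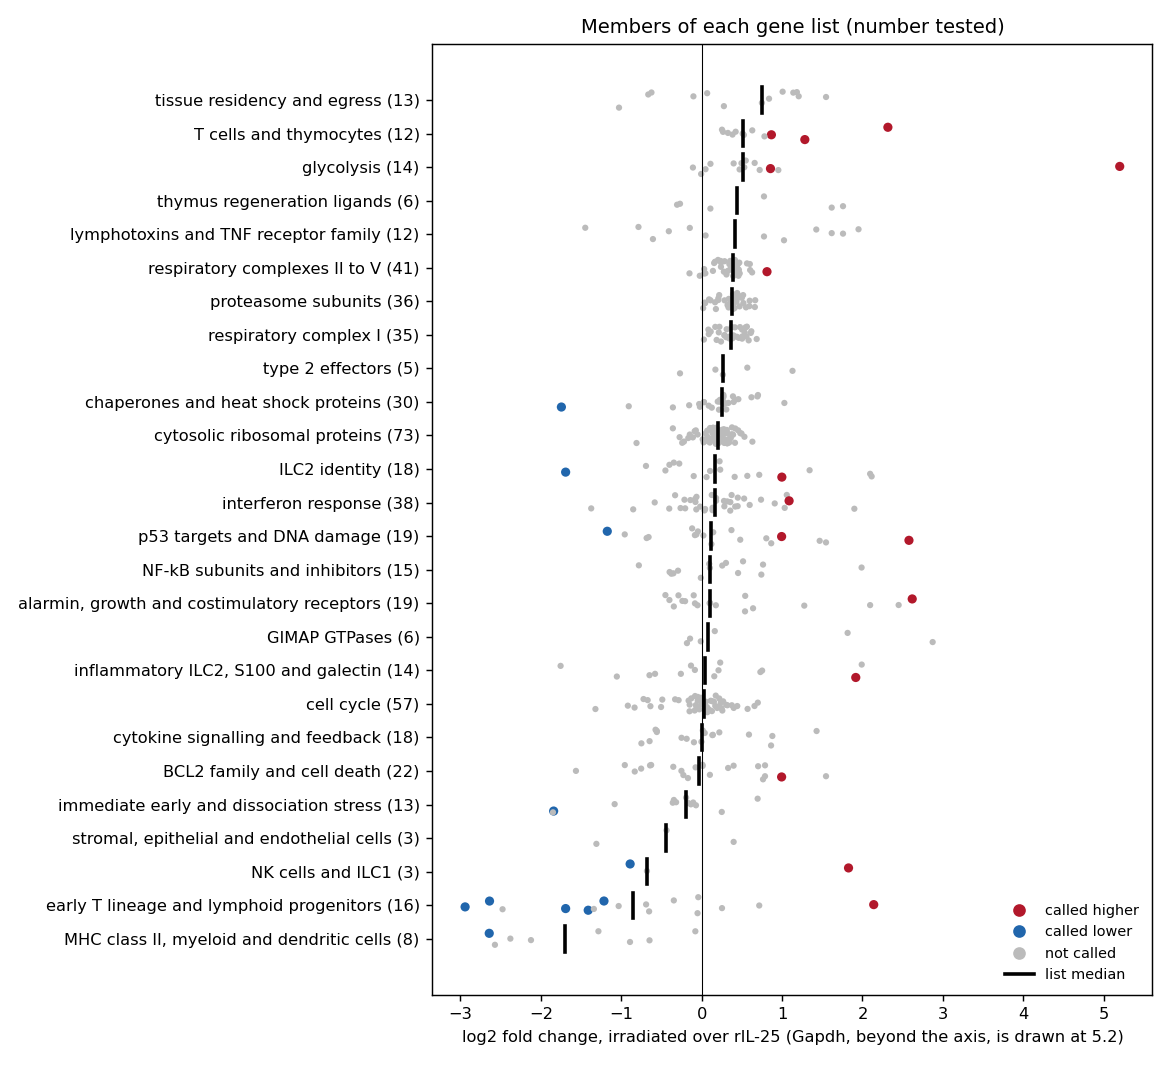
Log2 fold change of irradiated over rIL-25 libraries (x axis) for the tested members of each gene list with at least 3 of them (rows, number tested in brackets); each point is 1 gene, red called higher, blue called lower, grey not called, and the black bar is the list median. Proteasome and complex I members lie above 0 with medians of 0.38 and 0.37 under this scaling (31 of 36 and 31 of 35 above 0 with total counts only), and early T lineage and progenitor genes have a median of -0.86.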

How the data were processed

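Raw counts per gene, deposited by the authors in 1 table for the treatment experiment, were used for the 12 libraries. Per the submitters' processing notes the tools were bcl2fastq, cutadapt, STAR 2.5.2b, HTSeq and DESeq2 with build mm10; settings, annotation release, strand setting and whether molecules or reads were counted are not given in the sources used here. The authors' deposited log2 fold changes and adjusted p-values (rIL-25 over irradiation) served as a comparison: the authors' deposited table calls 155 genes, 92 higher and 63 lower in irradiated libraries, of which 125 (80.6%) were also called here. The table holds 9973 genes, each with at least 6 counts in some library; 16 names had been turned into dates and are not named.

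The analysis ran in edgeR 4.0.16 under R 4.3.3: filterByExpr by group (minimum count 10), TMM scaling, 1 quasi-likelihood fit over 12 libraries in 4 groups and the contrast irradiated minus rIL-25. CPM come from edgeR after TMM scaling. The SE of a log2 fold change is its size over the root of the F statistic. Intervals and floors (3 counts; 4.87 to 6.69 CPM in irradiated and 2.03 to 4.09 CPM in rIL-25 libraries) cover counting error only. A bound against a floor takes the counts of the higher group as exact. The scripts were tested on simulated counts. Same-numbered irradiated and rIL-25 libraries deviated together from their group means (correlations 0.122, 0.375 and 0.198), so a fit with the replicate number as a block is given where it changes a call. Alternatives were other scalings, filters and tools (DESeq2 1.42.0, limma 3.58.1 voom with quality weights), a 2-fold threshold, the 6 libraries alone and each library left out. The fit without the doubly treated group and the count bounds of Il1rl1 and Plxnb2 with irradiated libraries left out were chosen after seeing the data.

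The comparison and the 31 gene lists were chosen with earlier results of these data known. The text names the 15 largest rises and 15 largest falls among calls that averaged 10 or more counts per library in either group (predicted, clone and date names left out), from every list the 4 or fewer members of smallest p, and a set of ILC2 and marker genes; others are said to be named after their values were seen. Some genes that the rule chose are not reported here. Cd4, Cd8a, Cd8b1 and Hoxa9 are also outside this rule. B cell, ILC3, stromal and tuft markers (1, 2, 3 and 2 tested) and the cytokine signalling (18), NF-kB (15), GIMAP (6) and thymus regeneration ligand (6) lists had no call by edgeR or DESeq2; limma voom called 1 gene each in the cytokine signalling, GIMAP and thymus regeneration lists, and at an unadjusted p under 0.05 (16.8% of all genes) these 8 lists held 1, 0, 0, 1, 8, 3, 2 and 3 genes. With rIL-25 replicate 3 left out, edgeR called Cish, Traf1, Gimap3, Gimap4, Ltb and Ltb4r1 in them, all higher in irradiated libraries. That library was the highest of its group for Gimap3, Gimap4, Ltb and Ltb4r1. The median log2 fold change was then 1.47 for the thymus regeneration ligands, against 0.44 with all libraries. For the 2 ILC3 markers it was 2.41, against 1.04. No erythroid marker was analysed here.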

Additional observations from a re-analysis of the deposited data

How the results depend on the processing

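Against 155 calls (75 higher, 80 lower in irradiated libraries), a 2-fold threshold left 13 (9 higher, 4 lower) and limma voom gave 311 (192 higher, 119 lower). Fits with 1 library left out gave 54 to 206 calls, 31 to 117 of them higher and 23 to 105 lower. Scaling by total counts only gave 56 higher and 160 lower, so 25.9% of calls were higher against 48.4%; that scaling moved the median of all genes to -0.13, and list medians are to be read relative to it. DESeq2 gave 59.6% higher and upper quartile scaling 38.5%. The replicate block gave 171 calls, 144 of them shared; among the genes reported here it ended the call of Gria3 and added Aldoa, Id2, Itgb7, Stmn1 and Tnfrsf18, and it changed no other call. Without the doubly treated group 214 genes were called. Of 45 named genes called, 20 kept the call whichever library was left out, and 12 in every other setting that tested them. Log2 fold changes that changed sign belong to genes not called: Ccl5 with voom 0.043, Cdkn1a with total counts -0.0087, Dcn with voom -0.60, Il13 with the block 0.0796 and with voom 0.82, and Mki67 with total counts -0.0535. With 1 library left out they ran from -0.18 to 5.13 for Arg1, -1.25 to 1.11 for Ccl5, -1.67 to 1.89 for Cd74, -0.012 to 0.33 for Cdkn1a, -2.93 to 3.13 for Dcn, -0.18 to 0.76 for Furin, -3.28 to 1.38 for H2-Aa, -3.94 to 1.33 for H2-Eb1, -0.77 to 1.55 for Il13, -0.19 to 0.0299 for Il17rb, -0.34 to 2.61 for Klrg1 and -0.0542 to 0.38 for Mki67. The cause of each change was not tested. Depth limits genes near 3 counts per library, among them Il4, Il5 and Areg.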
